A study of Mus musculus with 8 samples.

Results

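Livers of mice treated to delete Met and to inhibit EGFR are set here beside control livers 2 days after TCPOBOP, across all genes that the arrays measured. The comparison uses 2 of the 8 arrays of the study, 1 per arm, which were chosen by their labels for arm and day. After a filter on signal it covers 12112 of 18193 genes. The MET KO + EGFRi day 2 array held RNA pooled from livers of Metff/ff:ERCre+/+ mice, named METfl/fl: TamCre+/+ in the treatment notes. They had been given 5 daily injections of tamoxifen (100 µl at 10 mg/ml) to delete Met. From 1 day before TCPOBOP they ate a diet with canertinib, an EGFR inhibitor, at an intended 80 mg/kg per day. The control day 2 array held RNA pooled from livers of littermates of the same genotype, which had received corn oil in place of tamoxifen and for which no canertinib is recorded. Both arms carried the floxed Met and Cre alleles and received a single gavage of 3 mg/kg TCPOBOP, no sooner than 5 days after tamoxifen. The labels call the inhibition systemic, so Met was not deleted in hepatocytes alone, and the promoter of the tamoxifen-switched Cre is not given. Age, sex and the number of mice in a pool are not given in the labels, nor whether day 0 mice received TCPOBOP. Tamoxifen and the diet also differ between the arms and cannot be told apart from the loss of MET and EGFR signalling.

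TCPOBOP activates the constitutive androstane receptor (CAR), which switches on drug-metabolising enzymes and makes mouse hepatocytes enlarge and divide without prior injury. MET is the receptor of hepatocyte growth factor and EGFR that of epidermal growth factor and its relatives, and both are main drivers of hepatocyte division after partial hepatectomy. A dividing hepatocyte loads and fires its replication origins, then builds a spindle under cyclin B and CDK1, and it needs new membrane lipid, which includes cholesterol.

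Each arm had 1 pooled array at day 2, so no spread between animals could be measured and no p-value belongs to a single day's difference. Differences are given as log2 of MET KO + EGFRi minus control, on array signals to which 71 was added, which understates the folds of weak genes. The median signal over all probe sets was 235 in MET KO + EGFRi livers and 224 in control livers, and the 3' to 5' ratio of actin probe sets was 1.86 in MET KO + EGFRi and 1.87 in control livers. Rank correlations of either day 2 array with the other 7 arrays ran from 0.92 to 0.94. Xist, an RNA made in female cells, had a signal of 8203 in MET KO + EGFRi and 6165 in control livers, so both pools held female RNA. The other Xist probe set that passed the filter gave 3614 in MET KO + EGFRi and 1318 in control livers (1.41). Whether the pools differed in their share of female RNA was not tested. Cyp2b10, the best known CAR target, reached 32027 in MET KO + EGFRi livers, against 33939 in control livers, while the day 0 signals were 356 in MET KO + EGFRi and 444 in control livers. Its probe set can bind related transcripts, as can another that gave 32335 in MET KO + EGFRi and 34540 in control livers. The remaining Cyp2b10 probe set gave 23862 in MET KO + EGFRi and 34811 in control livers (-0.54). Met itself had signals of 1502, 1049, 2034 and 1358 in the MET KO + EGFRi arrays of days 0, 1, 2 and 5, against 1444, 926, 1336 and 1149 in the control arrays. Its day 2 signal was therefore not lower in MET KO + EGFRi livers, on either of its 2 probe sets that passed the filter. Which exon was deleted is not given, so these probe sets cannot check the deletion.

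At day 2, 349 genes were at least 2-fold higher in MET KO + EGFRi livers and 246 were at least 2-fold lower, 2.88% and 2.03% of the 12112 genes. Genes higher by any amount made up 52.2% and genes lower by any amount 47.7%, with a median difference of 0.02. The counts past 2-fold were of similar size on the other days. They were 320 higher and 264 lower at day 0 (2.64% and 2.18%), 350 and 319 at day 1 (2.89% and 2.63%) and 272 and 262 at day 5 (2.25% and 2.16%), but most of the genes were others. Of the 349 higher genes, 227 were 2-fold higher at day 2 and on no other day, and of the 246 lower genes 166 were. Sharing between days was still well above the shares of all genes just given. Of the higher genes, 16.33%, 26.36% and 16.05% were also 2-fold higher at days 0, 1 and 5. Of the lower genes, 15.45%, 22.76% and 12.2% were also 2-fold lower on those days. Of the same genes, 29 of the higher and 8 of the lower genes were past 2-fold on all 4 days. In 240 of the 349 higher genes it was the control array of day 2 that departed more from the other days of its own arm, and in 214 the control day 2 signal was the lowest of all 8 arrays. Among the 246 lower genes the MET KO + EGFRi array departed more in 138 and was the lowest of all 8 arrays in 129. Over all 12112 genes the control array departed more in 6354 and was the lowest of all 8 arrays in 1974. The MET KO + EGFRi array departed more in 5758 of them and was the lowest in 1225. The genes past 2-fold were picked by these same day 2 signals, so raised counts among them are built in and are no test. An unusual pool and a change with the day cannot be told apart in this design.

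**Figure D1:**
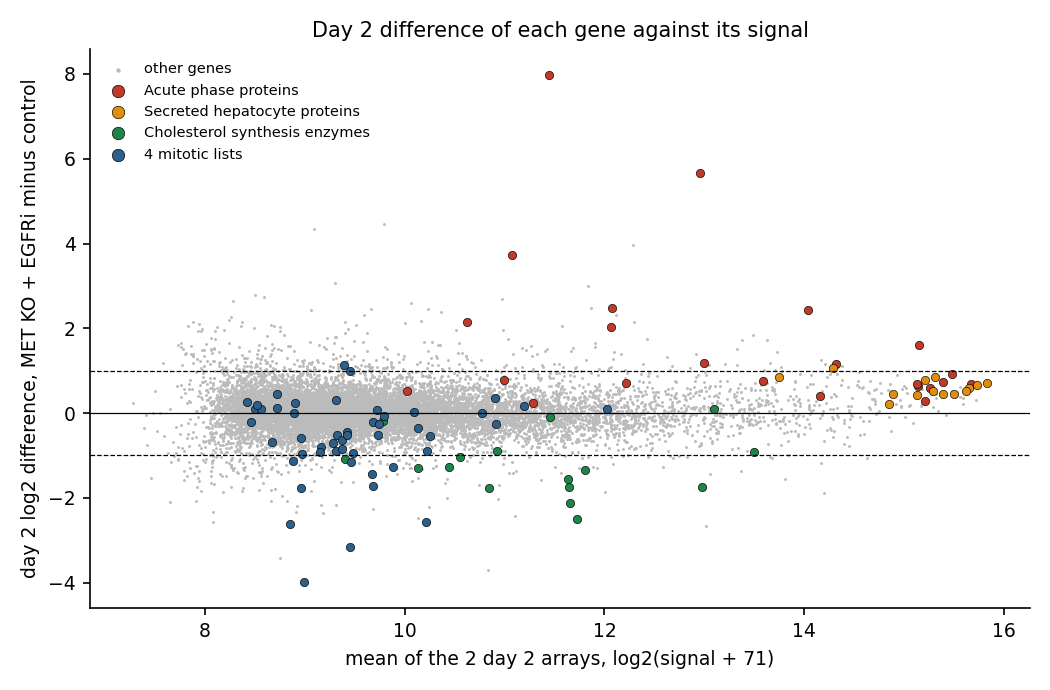
Day 2 difference (log2 signal + 71, MET KO + EGFRi minus control) of 12112 genes against the mean of both day 2 arrays; each point is 1 gene, coloured points are members of 4 groups of lists, and dashed lines mark 2-fold. Acute phase proteins (23 members) and secreted hepatocyte proteins (14) lie above 0, and 15 of 16 cholesterol synthesis enzymes and 32 of 49 genes of the 4 mitotic lists lie below 0.

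Many genes of mitosis were lower in MET KO + EGFRi livers at day 2, a few of them by far, while others differed little or the other way. Taking together mitotic cyclins and kinases, kinetochore and checkpoint proteins, spindle motors and cytokinesis factors, and anaphase, condensin and chromatin proteins, 49 of 78 listed genes passed the filter. Of these, 32 were lower and 17 higher, 10 were at least 2-fold lower and 1 at least 2-fold higher, and the median difference was -0.52. In control livers the day 2 array was the highest of the 4 days in 27 of the 49, or 55.1%, against 21.8% of all genes. In MET KO + EGFRi livers day 2 was the highest in 10 of the 49, against 2915 of the 12112 genes. The filter used the mean over all 8 arrays, so a gene such as Ccnb2 could pass through a high control day 2 signal alone. These counts are therefore in part built in and are no test, and the same holds for counts of the other lists.

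Cyclin B2 (Ccnb2), which activates CDK1 at the entry into mitosis, had signals of 35.1, 174, 163 and 422 on days 0, 1, 2 and 5 in MET KO + EGFRi livers, against 40.7, 424, 2030.4 and 269 in control livers. Its control signal at day 2 was several times that of any other day, and the MET KO + EGFRi signals reached their highest value at day 5. The day 2 difference was -3.17. CDK1 itself (Cdk1) had 88.5, 348, 383 and 449.9 in MET KO + EGFRi livers and 95.0, 784, 1421 and 317 in control livers, a day 2 difference of -1.72. The arms were level at day 0, and control livers were higher at days 1 and 2 and lower at day 5. Cdc20, which activates the anaphase-promoting complex, had 261, 349, 416 and 613 in MET KO + EGFRi livers and 283, 1469.9, 2841 and 816 in control livers, a difference of -2.58 at day 2. The aurora kinases differed less, with 366 in MET KO + EGFRi against 685 in control livers for Aurkb (-0.79) and 464 in MET KO + EGFRi against 694 in control livers for Aurka (-0.52), and both were lower in MET KO + EGFRi livers. Cks2, a partner of CDK1, was level at 1684 in MET KO + EGFRi and 1675 in control livers, and the transcription factor Mybl2 was higher at 452 in MET KO + EGFRi against 369 in control livers (0.25).

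Promoters of genes that are switched on in late cell cycle commonly hold CCAAT boxes and a CHR element, the site of a repressor complex. The promoters of Ccnb2, Cdk1 and Cdc20, from 250 bases before to 50 bases after the start of transcription, are printed because these 3 genes are among the most strongly lower ones, and they come from RefSeq on GRCm38.p6. Capitals mark the CHR element TTTGAA and the CCAAT box CCAAT on either strand, so that ATTGG and TTCAAA are capitals too. They are given 5′ to 3′ on the strand of the gene, which is the minus strand for all 3: Ccnb2 at chr9:70421505-70421804, Cdk1 at chr10:69352863-69353162 and Cdc20 at chr4:118437294-118437593.
Ccnb2: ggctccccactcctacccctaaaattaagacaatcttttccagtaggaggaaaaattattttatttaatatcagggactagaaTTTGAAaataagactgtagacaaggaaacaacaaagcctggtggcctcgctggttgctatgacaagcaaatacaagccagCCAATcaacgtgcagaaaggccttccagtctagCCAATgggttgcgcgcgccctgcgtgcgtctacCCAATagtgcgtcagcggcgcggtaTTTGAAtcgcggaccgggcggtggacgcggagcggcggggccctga
Cdk1: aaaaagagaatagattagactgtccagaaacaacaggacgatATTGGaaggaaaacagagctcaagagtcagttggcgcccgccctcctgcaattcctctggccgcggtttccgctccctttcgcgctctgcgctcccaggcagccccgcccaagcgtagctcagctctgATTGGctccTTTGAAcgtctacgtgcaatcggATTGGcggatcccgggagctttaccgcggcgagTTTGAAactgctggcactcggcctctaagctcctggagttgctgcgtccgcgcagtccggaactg
Cdc20: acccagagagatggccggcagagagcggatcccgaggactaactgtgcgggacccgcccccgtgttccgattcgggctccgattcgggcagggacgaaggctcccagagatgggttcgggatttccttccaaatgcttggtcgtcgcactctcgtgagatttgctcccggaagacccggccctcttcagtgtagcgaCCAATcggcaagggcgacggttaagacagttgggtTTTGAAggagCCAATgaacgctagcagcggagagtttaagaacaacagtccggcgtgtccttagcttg
Of the 49 mitotic genes, 41 had a promoter in the table. The CHR letters were found in 28 of them, or 68.3%, against 18.1% of 27025 promoters of all genes. CCAAT was found in 32, or 78.0%, against 37.9%. Among the 8 members at least 2-fold lower that had a promoter, 6 held both, namely Ccnb2, Cdk1, Spc25, Kif22, Ect2 and Cdc20. Each motif was thus about as common among these 8 as among all 41, and a link to the day 2 difference was not tested. The promoter of Mad2l1, the mitotic gene with the lowest day 2 difference, held neither. These are matches of letters and not measured binding.

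At the kinetochore, the structure that ties chromosomes to the spindle, the members split. Spc24 and Spc25, subunits of the NDC80 complex, had 424 and 404 in MET KO + EGFRi livers, against 1279 and 983 in control livers (differences -1.45 and -1.15). For Spc25 this rests on a probe set that can bind related transcripts, and its other probe set gave 0.02. Spc24 was already low in MET KO + EGFRi livers before day 2, with 60.8, 63.0, 424 and 375 on the 4 days against 319, 869.8, 1279 and 626 in control livers. The chromosomal passenger Cdca8 was lower as well, with 343 in MET KO + EGFRi against 718 in control livers (-0.93). Incenp, of the same complex, went the other way, with 929 in MET KO + EGFRi and 382 in control livers (1.14), and so did the centromeric histone Cenpa with 915 in MET KO + EGFRi and 428 in control livers (0.98). The list as a whole had 6 members higher and 6 lower and a median of -0.07, which became 0.05 without probe sets that can bind related transcripts.

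Among spindle and cytokinesis factors 11 of 15 were lower, 3 of them at least 2-fold, with a median of -0.53. Beside the exchange factor Ect2, the chromosome motor Kif22 had 182, 171, 201 and 307 on days 0, 1, 2 and 5 in MET KO + EGFRi livers, against 237, 333, 852 and 351 in control livers (-1.77 at day 2). Nusap1, which bundles spindle microtubules, had 248 in MET KO + EGFRi and 624 in control livers (-1.12). Racgap1, needed for the cleavage furrow, had 445 in MET KO + EGFRi and 922 in control livers, and the receptor and spindle protein Hmmr had 398 in MET KO + EGFRi and 797 in control livers, with the same direction on all 3 of its other probe sets. Among anaphase and chromatin genes 8 of 11 were lower with a median of -0.69. The condensin subunit Smc4, which compacts chromosomes, stayed between 490.2 and 619.6 on the 4 MET KO + EGFRi arrays and had 445, 867, 1403 and 447 on the control arrays (-1.28 at day 2). Condensin subunits Ncaph and Smc2 and topoisomerase Top2a were lower by less than 2-fold (-0.86, -0.69 and -0.70). Securin (Pttg1), which guards chromatid cohesion, did not follow, with 4226 in MET KO + EGFRi and 3972 in control livers.

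A further 28 mitotic genes were measured but failed the filter on mean signal. Of these 23 were lower and 5 higher, and they are given by examples chosen after their values were seen. Survivin (Birc5), a chromosomal passenger, had 38.5, 50.2, 43.5 and 279.8 on days 0, 1, 2 and 5 in MET KO + EGFRi livers, against 68.8, 453, 1531 and 47.6 in control livers, the largest such contrast at day 2 (-3.81). Nuf2, another subunit of the NDC80 complex, had 38.7, 36.1, 33.2 and 256 in MET KO + EGFRi livers, against 24.9, 332, 476 and 51.7 in control livers. In both, the MET KO + EGFRi signal was highest at day 5. Opposite examples were Kif23 with 364 in MET KO + EGFRi against 124 in control livers and Cdc25c with 238 in MET KO + EGFRi against 35.4 in control livers. Signals of the lower quartile and under, about 71, lie where these arrays resolve little.

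**Figure D2:**
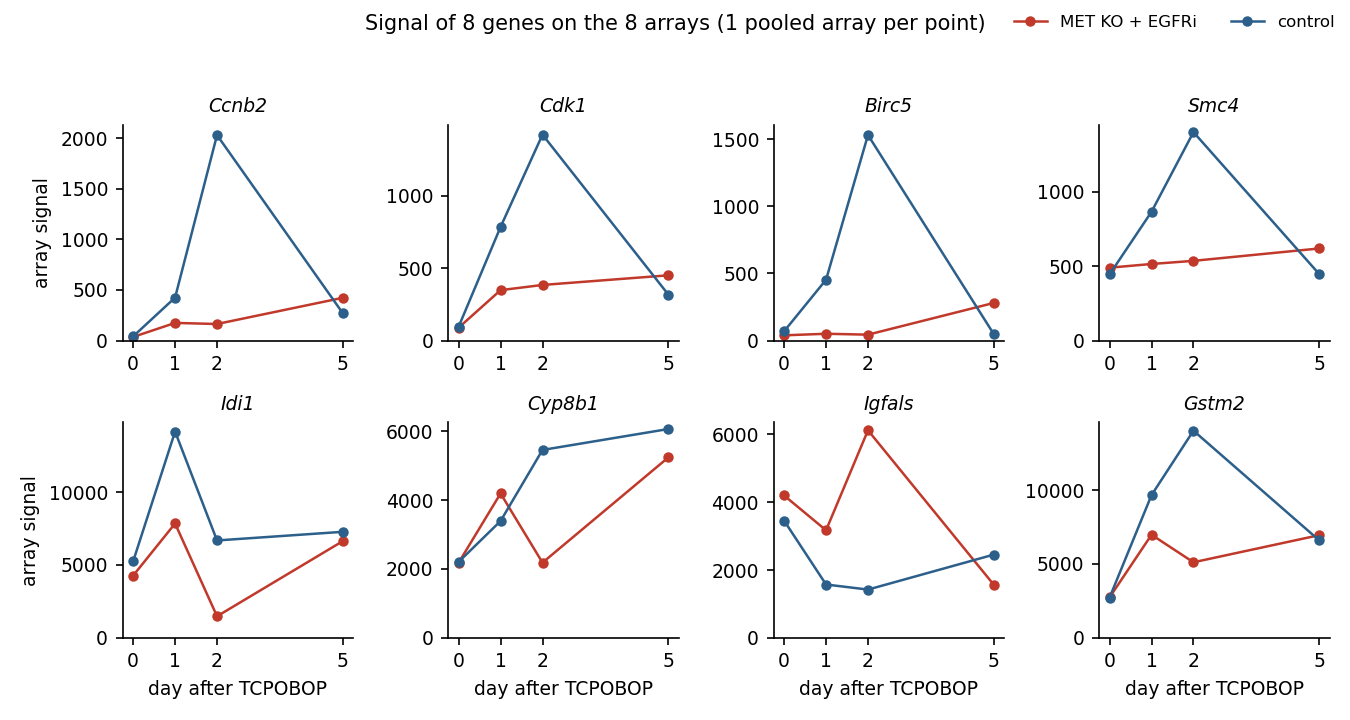
Array signal (linear axis from 0) of 8 genes against the day after TCPOBOP, 1 pooled array per point, MET KO + EGFRi in red and control in blue. Ccnb2, Cdk1, Birc5 and Smc4 peak at day 2 in control livers alone, Idi1 and Cyp8b1 stand low at day 2 in MET KO + EGFRi livers, Igfals stands high there, and Gstm2 peaks at day 2 in control livers.

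Genes of the steps before mitosis were mostly lower in MET KO + EGFRi livers as well. Among G1/S cyclins, kinases and E2F factors 13 of 17 were lower with a median of -0.28, and 2 of them passed 2-fold. E2f2, which drives S-phase genes, had 70.7 in MET KO + EGFRi and 357 in control livers (-1.59), and cyclin A2 (Ccna2) had 387 in MET KO + EGFRi and 921 in control livers (-1.12). Cyclin D1 (Ccnd1), an early target of CAR and growth factor signals, had 1232, 3172, 3571 and 4264 in MET KO + EGFRi livers, against 4553, 6318, 6381 and 5647 in control livers. It was thus lower on all 4 days and differed by -0.83 at day 2. Myc was near level at 395 in MET KO + EGFRi and 459.9 in control livers. Origin licensing factors were lower in 10 of 12 (median -0.42), with Mcm2 past 2-fold, geminin (Gmnn) at 549.5 in MET KO + EGFRi against 946 in control livers and the helicase subunit Mcm7 at 1268 in MET KO + EGFRi against 1734 in control livers. Mcm10 was higher, at 2921 in MET KO + EGFRi and 1989 in control livers, though its other probe set ran the other way. At the replication fork 12 of 15 were lower (median -0.48), among them the single-strand binding protein Rpa1 (1145 in MET KO + EGFRi, 2459 in control, -1.06) and the sliding clamp Pcna (1829 in MET KO + EGFRi, 2774 in control). Of 12 nucleotide synthesis genes 8 were lower (median -0.15), and the ribonucleotide reductase subunit Rrm2, which makes DNA precursors, was the one past 2-fold (899.5 in MET KO + EGFRi, 3857 in control, -2.02). CDK inhibitors and p53 targets, read as a single list, had a median of -0.27 at day 2. The medians of that list at days 0, 1 and 5 were 0.24, 0.19 and -0.08. Of 19 CDK inhibitors and p53 targets 14 were lower, among them Cdkn1a (648 in MET KO + EGFRi, 743 in control) and Cdkn1b (258 in MET KO + EGFRi, 438 in control), while Cdkn1c was higher (531 in MET KO + EGFRi, 231 in control) and Gadd45g past 2-fold higher (378 in MET KO + EGFRi, 88.0 in control). The 3 members at least 2-fold lower were the death receptor Fas (152 in MET KO + EGFRi, 433 in control) and the stress genes Gadd45a (256 in MET KO + EGFRi, 621 in control) and Gadd45b (1091 in MET KO + EGFRi, 2255 in control).

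Cholesterol synthesis was the list with the lowest median difference of the 54 lists read, and the low values stood in the MET KO + EGFRi array rather than as a peak in the control array. Of 16 enzymes that passed the filter 15 were lower and 11 at least 2-fold lower, with a median of -1.29 at day 2 against -0.13, -0.66 and -0.35 at days 0, 1 and 5. The MET KO + EGFRi day 2 array was the lowest of its arm in 12 of the 16, or 75%, against 24.8% of all genes, and the control day 2 array in 2. Relative to the other days of its own arm, the median enzyme lay at -0.90 in MET KO + EGFRi livers and at -0.06 in control livers.

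The low values ran along the whole pathway. At its start, the HMG-CoA synthase Hmgcs1 had 8452, 11002, 4320.1 and 11353 on days 0, 1, 2 and 5 in MET KO + EGFRi livers, against 8797, 24242, 14679.7 and 21571 in control livers (-1.75 at day 2), with all 3 of its other probe sets lower too. Among the enzymes that make and join isoprene units, Idi1 had 4272, 7849.6, 1479.9 and 6640.1 in MET KO + EGFRi livers and 5253, 14159, 6685 and 7278 in control livers. Both arms had their highest Idi1 signal at day 1, and the MET KO + EGFRi signal at day 2 was the lowest of the 8. Farnesyl diphosphate synthase Fdps had 646 in MET KO + EGFRi and 1681 in control livers (-1.29), and squalene synthase Fdft1 had 1793 in MET KO + EGFRi and 5382 in control livers (-1.55). Phosphomevalonate kinase Pmvk had 396 in MET KO + EGFRi and 917 in control livers (-1.08). Of the sterol ring enzymes, lanosterol synthase Lss had 825 in MET KO + EGFRi and 2112 in control livers (-1.28), Nsdhl had 2184 in MET KO + EGFRi and 5611 in control livers (-1.33), and Dhcr7, which makes the last step, had 976 in MET KO + EGFRi and 2078 in control livers (-1.04). Sc5d and Hsd17b7 were lower by less than 2-fold (-0.92 and -0.90). The exceptions were Mvd (-0.20), Tm7sf2 (-0.08) and the isomerase Ebp, which was level at 9046 in MET KO + EGFRi against 8398 in control livers (0.11).

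**Figure D3:**
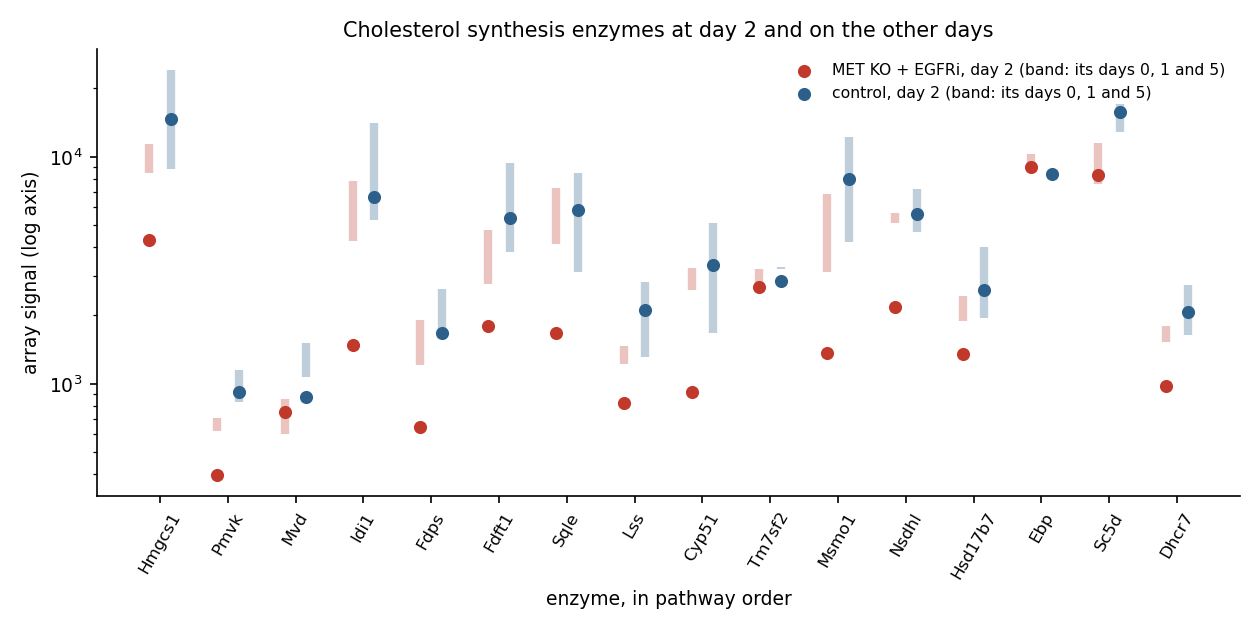
Array signal (log axis) of the 16 cholesterol synthesis enzymes in pathway order; points are the day 2 arrays, MET KO + EGFRi in red and left of control in blue, and bands span days 0, 1 and 5 of the same arm. In 12 of 16 enzymes the red day 2 point lies under its own band, which holds for 2 of the control points.

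Genes of this pathway are switched on together by SREBP2, which binds sterol elements beside CCAAT boxes. The promoters of Hmgcs1 and Idi1 are printed as those of an early and a middle step with some of the lowest values, and that of Msmo1 as the enzyme with the lowest difference. They come from RefSeq on GRCm38.p6, 250 bases before to 50 after the start, with CCAAT (or ATTGG) and the sterol element CACCCCAC in capitals on either strand. Hmgcs1 lies at chr13:119690101-119690400 and Idi1 at chr13:8885356-8885655 on the plus strand, and Msmo1 at chr8:64733529-64733828 on the minus strand.
Hmgcs1: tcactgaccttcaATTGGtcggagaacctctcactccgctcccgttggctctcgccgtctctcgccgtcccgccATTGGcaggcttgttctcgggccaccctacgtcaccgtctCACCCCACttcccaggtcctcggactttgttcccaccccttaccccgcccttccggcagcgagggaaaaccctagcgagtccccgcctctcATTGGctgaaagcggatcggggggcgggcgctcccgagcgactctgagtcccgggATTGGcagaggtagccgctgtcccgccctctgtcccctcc
Idi1: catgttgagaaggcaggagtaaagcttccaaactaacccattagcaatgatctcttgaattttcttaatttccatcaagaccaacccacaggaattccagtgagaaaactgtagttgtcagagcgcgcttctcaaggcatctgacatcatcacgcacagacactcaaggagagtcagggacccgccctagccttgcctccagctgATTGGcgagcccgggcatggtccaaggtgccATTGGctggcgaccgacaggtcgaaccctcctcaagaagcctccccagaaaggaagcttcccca
Msmo1: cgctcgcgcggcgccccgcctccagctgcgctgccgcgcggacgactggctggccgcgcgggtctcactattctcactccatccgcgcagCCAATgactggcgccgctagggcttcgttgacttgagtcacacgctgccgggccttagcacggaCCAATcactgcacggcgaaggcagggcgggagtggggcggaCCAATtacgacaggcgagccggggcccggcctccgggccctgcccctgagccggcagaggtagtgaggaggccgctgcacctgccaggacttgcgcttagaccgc
Of the 16 enzymes 13 had a promoter in the table. CCAAT was found in 12, or 92.3%, against 37.9% of all promoters. The letters CACCCCAC were found in 1, that of Hmgcs1, or 7.69%, against 2.77% of all promoters, and no match elsewhere says only that these exact letters are not in these windows.

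Genes around the pathway did not all follow. Insig1, which holds SREBP in the endoplasmic reticulum and is itself its target, had 1448, 2637, 2118 and 2785 on days 0, 1, 2 and 5 in MET KO + EGFRi livers, against 3607, 6130.4, 5285 and 5349.6 in control livers, and so was lower on all 4 days (-1.29 at day 2). Srebf2, which encodes SREBP2, had 574 in MET KO + EGFRi and 816 in control livers, with its other probe set in the opposite direction. The HDL receptor Scarb1, which takes up cholesterol, was higher, with 2923, 2810.2, 4763 and 3282 in MET KO + EGFRi livers against 3031, 2698, 2244 and 3643 in control livers (1.06), and the arms were close on the other 3 days. Lcat, the enzyme that esterifies cholesterol in plasma, had 11926 in MET KO + EGFRi and 5401 in control livers (1.13). Cyp8b1, which makes cholic acid from cholesterol intermediates, had 2183, 4194, 2184 and 5239.8 in MET KO + EGFRi livers, against 2205, 3393, 5457 and 6066 in control livers (-1.29 at day 2). Cyp7a1, the rate-limiting enzyme of bile acid synthesis, was close at 3900.3 in MET KO + EGFRi and 3508 in control livers.

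Fatty acid synthesis was also lower, in 15 of 18 genes with a median of -0.49, but it had been lower at days 0 and 1 already, with medians of -1.003 and -0.78. The desaturase Scd1 had 21249, 10692, 9653 and 14684 in MET KO + EGFRi livers, against 38296, 36187, 36004 and 23062 in control livers (-1.89 at day 2). Acetyl-CoA synthetase Acss2 (2363 in MET KO + EGFRi, 5803 in control) and ATP-citrate lyase Acly (3215 in MET KO + EGFRi, 6559 in control) were past 2-fold lower, while the synthase Fasn (3397 in MET KO + EGFRi, 6221 in control, -0.86) was not. Srebf1, whose product drives these genes, was higher at day 2, with 3304, 4134, 6823 and 4659 in MET KO + EGFRi livers against 7898, 6461, 4069.9 and 4547 in control livers (0.74). Of the lipid droplet genes, the phosphatase Lpin1 was higher (3877 in MET KO + EGFRi, 1477 in control) and the lipase inhibitor G0s2 lower (229.8 in MET KO + EGFRi, 1275 in control), and that list was split, 10 higher and 8 lower. Ehhadh, a peroxisomal enzyme of fatty acid oxidation, had 17221 in MET KO + EGFRi and 6016 in control livers, and the hormone Fgf21 had 404 in MET KO + EGFRi and 146 in control livers. The oxidation list had 13 members higher and 12 lower.

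Acute phase proteins, which the liver secretes in inflammation, were all higher in MET KO + EGFRi livers. All 23 that passed the filter were higher at day 2, 10 of them at least 2-fold, with a median of 0.78. The list was higher by similar amounts on the other days, with medians of 0.98, 0.97 and 0.65 at days 0, 1 and 5. Beyond serum amyloid A, where Saa1 had 56587 in MET KO + EGFRi and 1046 in control livers, the inter-alpha-trypsin inhibitor heavy chain Itih3 had 33058, 35845, 38823 and 26246 on days 0, 1, 2 and 5 in MET KO + EGFRi livers, against 12615, 14362, 7186 and 9079 in control livers (2.42 at day 2). Its relative Itih4 had 63238 in MET KO + EGFRi and 20879 in control livers (1.60). In both genes the MET KO + EGFRi signal was the higher one on each day, and day 2 held the highest MET KO + EGFRi and the lowest control signal. The orosomucoid Orm2, a plasma carrier protein, had 8654 in MET KO + EGFRi and 2048 in control livers, and Saa3, which macrophages also make, had 3251 in MET KO + EGFRi and 683 in control livers. Lipocalin 2 (Lcn2), an iron-binding defence protein, had 34565, 36042, 7771 and 5470.1 in MET KO + EGFRi livers, against 622, 743, 525 and 911 in control livers. Its MET KO + EGFRi signal was thus lower at day 2 than at days 0 and 1, and so were those of Serpina3n, with 26828, 31110.3, 10139 and 6788 in MET KO + EGFRi livers against 4460.0, 1139.6, 1758 and 2279.5 in control livers, and of the metallothioneins. The classical members C-reactive protein (Crp) and hepcidin (Hamp) differed little (0.40 and 0.29).

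The signal chain that drives these proteins, IL-6 and related cytokines through STAT3, was higher in 18 of 20 genes, by a median of 0.19. The medians of this list at days 0, 1 and 5 were 0.87, 0.44 and 0.16. Lifr, the receptor of leukaemia inhibitory factor, had 19223 in MET KO + EGFRi and 5768 in control livers (1.72), with both other probe sets in the same direction. The transcription factor Cebpd had 461 in MET KO + EGFRi and 146 in control livers (1.30). Socs1, an inhibitor of JAK kinases, stood out in the other direction, with 332, 402, 62.0 and 222 in MET KO + EGFRi livers against 228, 390.4, 374 and 218 in control livers (-1.74 at day 2). Stat3 itself had 3698 in MET KO + EGFRi and 2889 in control livers, and the feedback inhibitor Socs3 had 693 in MET KO + EGFRi and 640.1 in control livers. The zinc-binding metallothioneins Mt1 and Mt2 had 10537 and 6762 in MET KO + EGFRi livers, against 2328 and 2095 in control livers (2.14 and 1.66). The zinc exporter Slc30a1, switched on by the same metal sensor, had 1419 in MET KO + EGFRi and 577 in control livers, though its other probe set ran the other way. The glucocorticoid target Fkbp5 had 4421 in MET KO + EGFRi and 2042 in control livers (1.09).

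Proteins that hepatocytes secrete in bulk were higher in MET KO + EGFRi livers at day 2. All 14 in the list were higher, with a median of 0.57, and for all 14 day 2 was the day of the highest difference, against 29.8% of all genes. Albumin (Alb) had 38805, 50765, 68204 and 69876 on days 0, 1, 2 and 5 in MET KO + EGFRi livers, against 37254, 50479, 42800.0 and 77082 in control livers, and the arms were level on days 0 and 1. Histidine-rich glycoprotein Hrg had 28809 in MET KO + EGFRi and 13813 in control livers (1.06), and vitronectin (Vtn) had 54197 in MET KO + EGFRi and 30174 in control livers (0.84). The clotting factors were higher in 15 of 16 with a median of 0.56. Plasminogen (Plg) had 42256 in MET KO + EGFRi and 22826 in control livers, prothrombin (F2) had 37508 in MET KO + EGFRi and 23478 in control livers, and heparin cofactor Serpind1 was the exception (-0.22). Complement genes were higher in 10 of 14 with a median of 0.30, among them C2 (4113 in MET KO + EGFRi, 1509.6 in control) and C8a (6685 in MET KO + EGFRi, 3251 in control). All 10 hepatocyte markers were higher as well, with a median of 0.59, among them the master regulator Hnf4a (19664 in MET KO + EGFRi, 9895 in control, with all 3 of its other probe sets higher).

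These genes are among the brightest on the array, and brightness moved with the day 2 difference. The 118 genes with a mean signal of 20000 or more had a median difference of 0.44 at day 2 and 96 of them were higher, whereas their medians on days 0, 1 and 5 were 0.01, -0.09 and -0.02. Genes between 5000 and 20000 had a day 2 median of 0.04. After quantile normalization the bright genes' median was 0.08, and that of the secreted proteins 0.14 and of the hepatocyte markers 0.28. The share of the difference that belongs to the scaling of the 2 arrays was not tested otherwise.

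**Figure D4:**
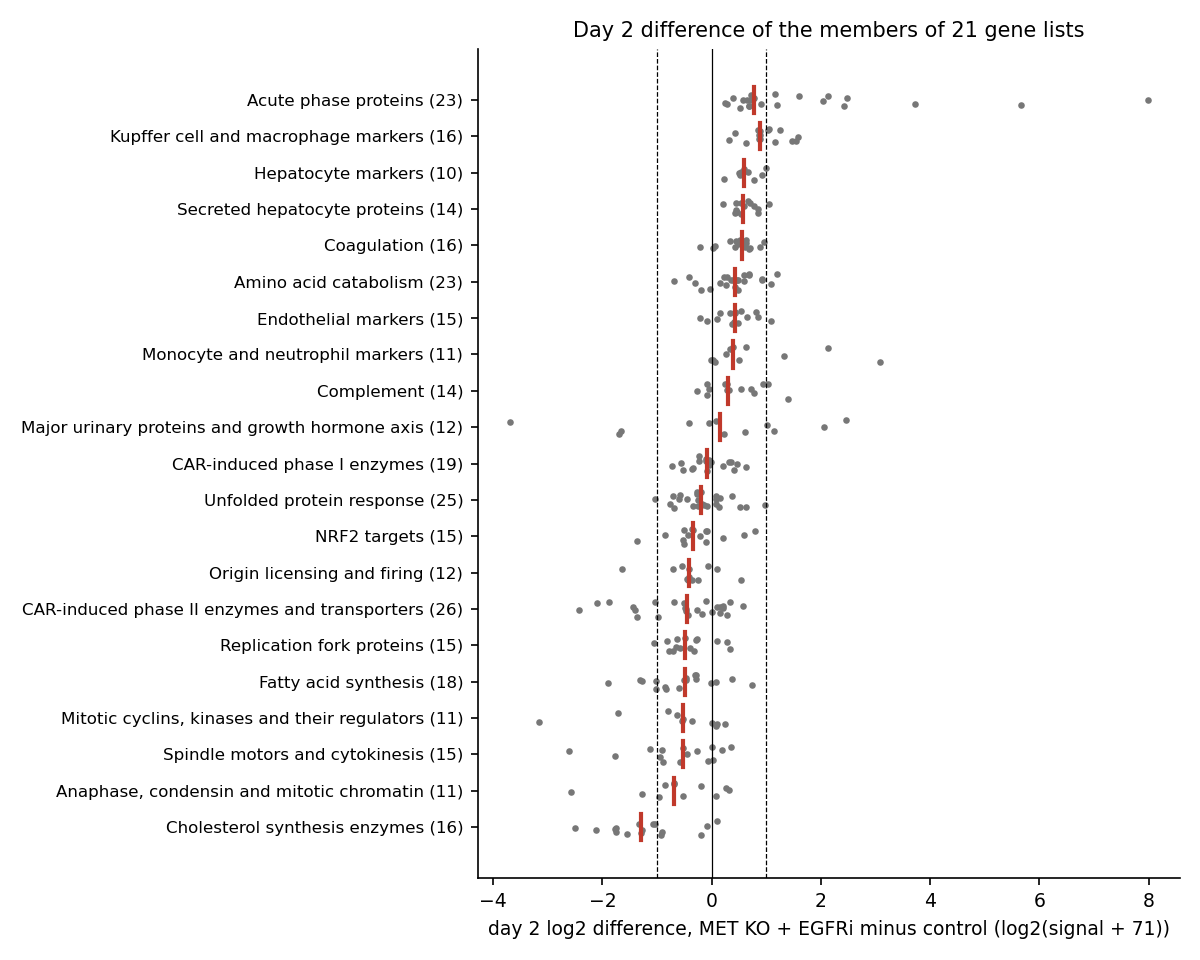
Day 2 difference (log2 signal + 71, MET KO + EGFRi minus control) of the members of 21 of the 54 gene lists, 1 point per gene, with the number of members in brackets. Red bars are medians and dashed lines mark 2-fold. The lists were selected for display, and the kinetochore list (median -0.07) is not among them. Medians run from 0.78 for acute phase proteins and 0.88 for macrophage markers at the top to -1.29 for cholesterol synthesis enzymes at the bottom.

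Markers of liver macrophages were higher too. All 16 that passed the filter were higher at day 2, 7 at least 2-fold, with a median of 0.88, against medians of 0.13, 0.71 and 0.50 on days 0, 1 and 5. Clec4f, the lectin specific to Kupffer cells, had 2367, 2278, 5312 and 3655 in MET KO + EGFRi livers, against 2129, 1359, 1879.6 and 4056 in control livers (1.46 at day 2). The macrophage receptor Adgre1 had 1808, 1919, 3097 and 2634 in MET KO + EGFRi livers and 1658, 1659, 1457 and 2622 in control livers. In both genes the arms were closer on the other 3 days. C1qa and C1qc, the complement components that macrophages make, had 4172 and 3864 in MET KO + EGFRi livers, against 1356 and 1280.3 in control livers. The summed signal of the list was 66870 in MET KO + EGFRi livers at day 2, within 43500 to 74840 over the 4 days of that arm, and 32920 in control livers, within 27180 to 50290. In whole liver, more cells of a type and more RNA per cell cannot be told apart. Of 15 endothelial markers 13 were higher (median 0.43), with Cdh5, the junction protein of endothelium, at 1116 in MET KO + EGFRi and 487 in control livers, and sums of 19930 in MET KO + EGFRi and 14460 in control livers. The monocyte and neutrophil markers, 10 of 11 higher, were led by the granule protease Prtn3 (1759.7 in MET KO + EGFRi, 146 in control) and the calgranulins S100a8 (2068 in MET KO + EGFRi, 419.8 in control) and S100a9 (1331 in MET KO + EGFRi, 487 in control), while the granule genes Mpo (561 in MET KO + EGFRi, 458 in control) and Elane (823 in MET KO + EGFRi, 813 in control) were close. Their sums were 12430 in MET KO + EGFRi and 7119 in control livers. The median of these markers was 0.39 at day 2, against 0.36, 0.63 and 0.45 at days 0, 1 and 5. Stellate cell markers were split, 7 higher and 6 lower, with decorin (Dcn) higher on 1 of its 2 probe sets (9520.1 in MET KO + EGFRi, 4369.9 in control) and Col1a1 lower (110.2 in MET KO + EGFRi, 329 in control), and sums of 25070 in MET KO + EGFRi and 17550 in control livers. The part of these cells in the differences of other gene groups was not tested.

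**Figure D5:**
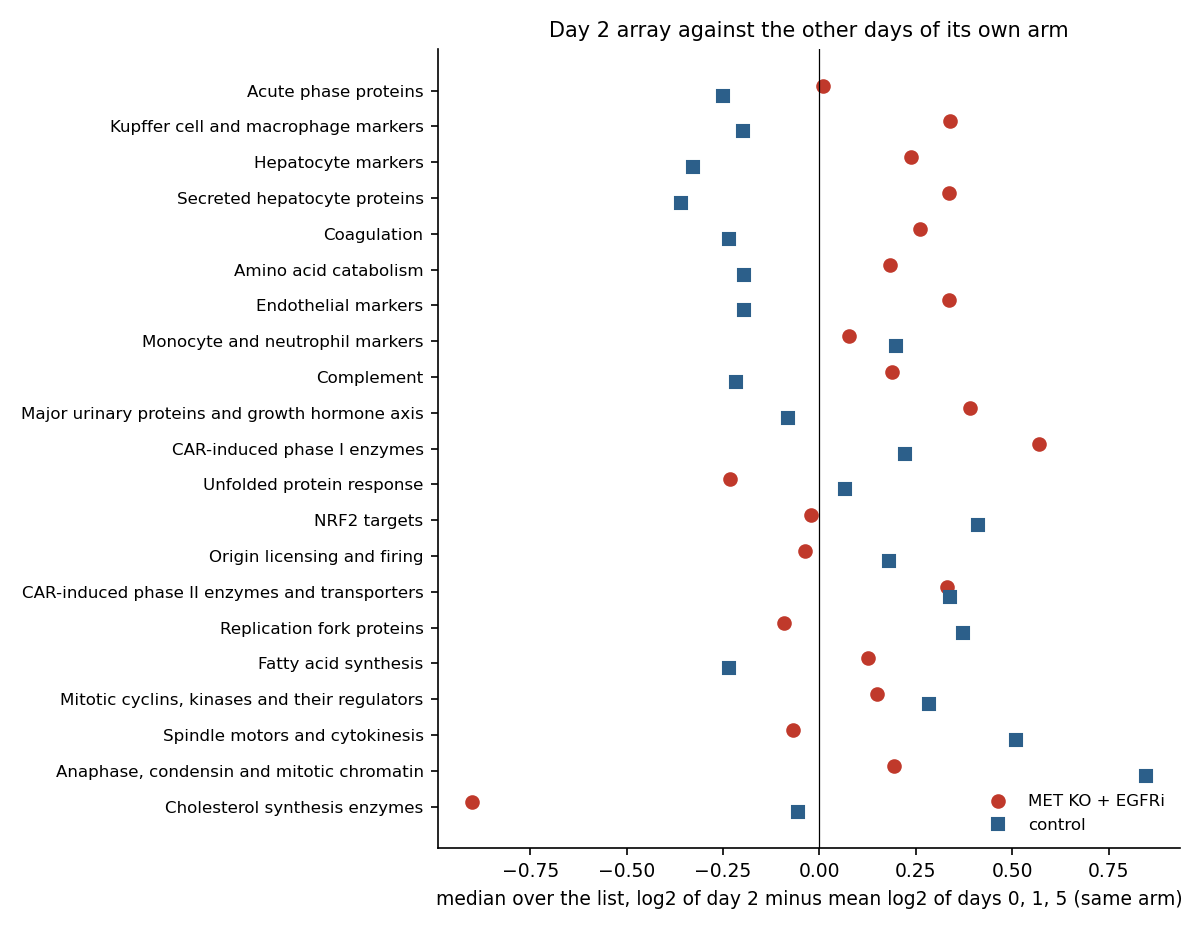
Median over the members of the same 21 selected gene lists of the day 2 signal (log2 signal + 71) minus the mean of days 0, 1 and 5 of the same arm, with MET KO + EGFRi as red circles and control as blue squares. Cholesterol synthesis enzymes stand at -0.90 in MET KO + EGFRi livers and -0.06 in control livers, and the anaphase and condensin list at 0.19 in MET KO + EGFRi livers and 0.85 in control livers.

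The growth hormone axis, through which the pituitary sets hepatic IGF1 output, was split. Its feedback inhibitors and IGF genes were higher in MET KO + EGFRi livers. Socs2, a STAT5 target, had 2277, 2637, 2755 and 1375 in MET KO + EGFRi livers, against 825, 713, 445 and 319 in control livers (2.45 at day 2). Every MET KO + EGFRi signal of Socs2 was thus above every control signal. Igfals, the carrier subunit of circulating IGF1, had 4199, 3173, 6123 and 1566 in MET KO + EGFRi livers, against 3456, 1573, 1424 and 2455 in control livers (2.05 at day 2), and at day 5 the MET KO + EGFRi signal was the lower one. Cish, another STAT5 target, had 3005 in MET KO + EGFRi and 1321 in control livers, and Igf1 had 19023 in MET KO + EGFRi and 9359.8 in control livers. The major urinary proteins, pheromone carriers that growth hormone also controls, went the other way. Mup10 had 436 in MET KO + EGFRi and 6501 in control livers, Mup3 had 4373 in MET KO + EGFRi and 14326 in control livers, and Mup5 had 695 in MET KO + EGFRi and 2338 in control livers, with the caution that these genes are near-identical copies. Cyp2d9, a male-biased P450, had 1037, 1181, 883 and 1529 in MET KO + EGFRi livers, against 982, 1672, 3005 and 1717 in control livers (-1.69 at day 2). The male-biased list as a whole was split, with 5 of 8 genes higher and 3 lower and a median of 0.16 that became -0.03 after quantile normalization.

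Enzymes that CAR switches on were mostly a little lower in MET KO + EGFRi livers, and a few conjugating enzymes were lower by more. None of 19 phase I enzymes was 2-fold apart, with a median of -0.08 that was -0.25 after quantile normalization, and the largest difference was -0.73 for the dehydrogenase Aldh1a7 (16649 in MET KO + EGFRi, 27672 in control). Cyp2c29, Cyp2c37 and Cyp3a11, P450s of drug oxidation, were slightly higher (0.40, 0.46 and 0.35). Of 26 conjugating enzymes and transporters 17 were lower and 7 at least 2-fold lower, with a median of -0.45. Both lists had been lower before day 2, with medians at days 0 and 1 of -0.40 and -0.36 for phase I and of -0.38 and -0.39 for the conjugating list. Relative to the other days of its own arm, the conjugating list stood at 0.33 in MET KO + EGFRi and 0.34 in control livers at day 2, and whether the 2 lists differ was not tested. The glutathione transferase Gstm2 had 2736, 6973, 5111 and 6946 on days 0, 1, 2 and 5 in MET KO + EGFRi livers, against 2725, 9654, 14013 and 6589 in control livers (-1.44 at day 2), so the arms were close at days 0 and 5. UDP-glucose dehydrogenase Ugdh, which makes the sugar donor for glucuronidation, had 6519 in MET KO + EGFRi and 16833 in control livers (-1.36). The export pump Abcc2 had 2941 in MET KO + EGFRi and 6076 in control livers (-1.03), and the transferase Gsta2 had 875 in MET KO + EGFRi and 5049.5 in control livers (-2.44). Estrogen sulfotransferase Sult1e1 had 29.7, 1932, 26.5 and 3524 in MET KO + EGFRi livers, against 23.8, 337, 344 and 476 in control livers, a pattern in which the MET KO + EGFRi signal was high on days 1 and 5 and at the bottom of the scale at day 2. Nr1i3, the gene of CAR, had 1409, 863, 790.0 and 1709 in MET KO + EGFRi livers, against 3141, 2065, 1784 and 1887 in control livers (-1.11 at day 2), lower on all 4 days.

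Genes of amino acid use and glucose production were mostly higher in MET KO + EGFRi livers. Of 23 amino acid catabolism genes 18 were higher with a median of 0.43, among them betaine-homocysteine methyltransferase Bhmt (19463 in MET KO + EGFRi, 8479.8 in control) and proline dehydrogenase Prodh (4809 in MET KO + EGFRi, 2239 in control), and kynurenine monooxygenase Kmo was lower (3704 in MET KO + EGFRi, 5989 in control). Glucose genes were higher in 11 of 16, with Pck1, the rate-limiting enzyme of gluconeogenesis, at 15208 in MET KO + EGFRi and 6886 in control livers (1.14). Igfbp1, which insulin holds down, had 2367 in MET KO + EGFRi and 467 in control livers (2.18) and was higher on all 4 days. The glycine cleavage enzyme Gldc was lower, with 1460.2 in MET KO + EGFRi and 4487 in control livers (-1.57), and so was the periportal P450 Cyp2f2, with 3227 in MET KO + EGFRi and 20696 in control livers. The other periportal genes were mostly higher, so that 9 of 15 in the list were, with a median of 0.30.

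Genes of the unfolded protein response and targets of NRF2 were mostly a little lower, and heat shock genes were split. Of 25 genes of the unfolded protein response 16 were lower with a median of -0.20, and the MET KO + EGFRi day 2 array was the lowest of its arm in 14. The chaperone Hsp90b1 had 8208, 8454, 5018 and 7041 in MET KO + EGFRi livers, against 6126, 10844, 10316 and 3901 in control livers (-1.03 at day 2), and the chaperone Hspa5 had 6216 in MET KO + EGFRi and 10146 in control livers (-0.70). Targets of NRF2, the oxidant sensor, were lower in 12 of 15 with a median of -0.34, among them transketolase Tkt (3677 in MET KO + EGFRi, 6722 in control) and Nqo1 (824 in MET KO + EGFRi, 1193 in control). Of 9 heat shock genes 5 were higher and 4 lower, with the chaperone Hspa1b past 2-fold lower (1775 in MET KO + EGFRi, 4874 in control). The heat shock median of 0.06 turned to -0.07 after quantile normalization and to -0.17 with no filter. It was -0.006 with median scaling, -0.21 with the mean of a gene's probe sets and -0.47 without probe sets that can bind related transcripts. Proteasome subunits were lower in 22 of 30 and respiratory chain subunits in 22 of 30, by medians of only -0.15 and -0.13, and no member of either list was 2-fold apart. Interferon-stimulated genes were even, with 10 higher and 12 lower.

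In the receptor pathway itself, 12 of 16 genes were higher, with a median of 0.22. Errfi1, a feedback inhibitor of EGFR, had 28124 in MET KO + EGFRi and 12621 in control livers (1.15). Egfr had 4694, 4714, 3846 and 3336 in MET KO + EGFRi livers, against 3018, 3539, 3497 and 2766 in control livers (0.13 at day 2), and canertinib inhibits the protein's kinase. Among ligands, Hgf had 475 in MET KO + EGFRi and 294 in control livers, its activating protease Hgfac had 7430.2 in MET KO + EGFRi and 4007 in control livers (0.88), and the EGFR ligand Hbegf had 346 in MET KO + EGFRi and 142 in control livers, with its other probe set in the opposite direction. Among genes that ERK, the kinase downstream of both receptors, switches on, 10 of 15 were higher and 5 lower, with Fosl1 at 548 in MET KO + EGFRi against 149.6 in control livers, Spry4 at 721 in MET KO + EGFRi against 373 in control livers and Dusp6 at 731 in MET KO + EGFRi against 872 in control livers. Axl, a receptor kinase and YAP target, had 1125 in MET KO + EGFRi and 462 in control livers (1.17).

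Outside these lists, the largest increases were read among genes with an upper-quartile day 2 signal in either arm. Several had a low control day 2 signal, which such a ranking favours. The control day 2 signals of the 3 genes that follow lay near or under 71, where these arrays resolve little. The kinase Mast3 had 316, 338, 878 and 564 in MET KO + EGFRi livers, against 492, 502, 67.1 and 422 in control livers. The keratin Krt78 had 269, 918, 929 and 779 in MET KO + EGFRi livers, against 79.6, 551, 78.7 and 618 in control livers. For angiotensin-converting enzyme Ace, which had 607, 377, 710.2 and 498 in MET KO + EGFRi and 523, 634, 53.4 and 706 in control livers, the other probe set ran the opposite way at day 2, with 272.5 against 600.5 in control livers. Each of these 3 genes had its lowest control signal at day 2, by several times for Mast3 and Ace, while that of Krt78 was as low at day 0. Others differed on every day. Mmd2 had 4031, 3866, 4089 and 2594 in MET KO + EGFRi livers, against 79.1, 98.6, 118 and 96.5 in control livers, and the formin Inf2 had 5861, 9661, 10219 and 12458 in MET KO + EGFRi livers, against 1109.7, 1422, 1224 and 1409 in control livers. The nuclear noncoding RNA Malat1 had 2018, 2092, 5063 and 3047 in MET KO + EGFRi livers, against 2622, 1562, 719.9 and 953 in control livers (2.70 at day 2). Its 4 other probe sets that passed the filter gave smaller day 2 differences of 2.32, 1.81, 0.66 and 0.08, the last near level. Among the largest decreases, the mitochondrial ribosomal protein Mrpl52 had 406 in MET KO + EGFRi and 2576 in control livers (-2.47). Both other Mrpl52 probe sets that passed the filter were lower by much less (-0.25 and -0.57). The class II antigen chain H2-Ab1 had 144 in MET KO + EGFRi against 1009 in control livers, but its other probe set that passed the filter gave 510.1 in MET KO + EGFRi and 456.8 in control livers.

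Whether the day 2 difference departs from that of the other days was tested with limma, which set it against the mean difference of days 0, 1 and 5 over all 8 arrays with 2 residual degrees of freedom. With limma, 0 of 12112 genes (0%) passed a Benjamini-Hochberg adjusted p of 0.05. At an unadjusted p under 0.05 there were 529 genes higher and 390 lower at day 2, 4.37% and 3.22% of all genes, and after dividing each array by its median 380 and 540. The smallest adjusted p was 0.118, for Phgdh, the first enzyme of serine synthesis. Its signals were 369, 462, 2400.1 and 977 in MET KO + EGFRi livers, against 2641, 3751, 944 and 5218 in control livers. The MET KO + EGFRi signal was the lower one at days 0, 1 and 5 and the higher one at day 2, a departure of 3.88 with a standard error of 0.32. Its other probe set that passed the filter was level at day 2, with 308.1 against 288.5 in control livers. With a filter at the upper quartile Phgdh was called (adjusted p 0.036 in limma), and over all alternatives the smallest adjusted p ran from 0.036 to 0.6545. Next in the direction of a higher day 2 difference were Cfap61, Ace, Hsd17b6 and Nrip2, and in the other direction Mad2l1, Msmo1, Ufd1, Hnrnpa2b1 and Ikzf5. Hsd17b6, an enzyme of androgen metabolism, had 1955, 846, 4358 and 1649 in MET KO + EGFRi livers, against 9038, 2229, 2295 and 7589 in control livers. The splicing factor Hnrnpa2b1 had 3344, 3924, 1763 and 2636 in MET KO + EGFRi livers and 2304, 2611, 3476 and 1489.5 in control livers, with all 3 other probe sets in the same direction at day 2. Among cholesterol enzymes 7 of 16 had an unadjusted p under 0.05, and of the 4 mitotic lists 9 of 49.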

How the data were processed

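RNA of whole mouse liver was hybridised to 8 one-colour Affymetrix arrays, 1 pooled sample for each arm and day. The deposited values are array intensity signals that the authors made with MAS5, per the submitters' processing notes, with no version given; they are linear, and every array had a trimmed mean of 500 after 2% was dropped at each end. Detection calls and probe-level files were not used here. Of 45037 probe sets that are no controls, 34945 name 1 gene in the platform annotation, 932 name several and 9160 are not listed. Each gene was taken from the probe set with the highest mean log2(signal + 71), 71 being the lower quartile of all values, and kept where that mean reached 8.24, the median of all probe sets. Differences at day 2 are described by size and by a 2-fold threshold. The arm by day 2 term over all 8 arrays was tested in limma 3.58.1 (R 4.3.3) with trended eBayes and Benjamini-Hochberg adjustment. On simulated data with 200 of 12112 genes changed, it recovered 3.8%, 64.8% and 96.4% of genes changed 2-fold, 4-fold and 8-fold, and 11.6% of its calls were false. Promoters were searched in Python 3.11.15.

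Genes named were drawn from the 15 largest differences in each direction whose higher day 2 signal reached its array's upper quartile (584.1 for MET KO + EGFRi, 573.9 for control). Further sources were up to 8 members of a list by size of difference, the kept cholesterol, mitotic and licensing genes, the 5 smallest departure p-values in each direction, and 13 genes always read. Not all of these genes are described above. Saa2 (7.98), Lrg1 (3.96), Mki67 (-0.97) and Foxm1 (-0.36) are among those left out. Some other list members were named after their values were seen. The comparison and the lists were chosen with earlier results of these data known. Alternatives changed the pseudocount, filter, scaling, choice of probe set and threshold. The precision of a difference is limited by the number of arrays.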

Additional observations from a re-analysis of the deposited data

How the results depend on the processing

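The counts at least 2-fold higher and lower at day 2, 349 and 246, came to 183 and 117 with the median of all values as pseudocount, 184 and 109 with a filter at the upper quartile, 686 and 504 with no filter, 229 and 152 with the mean of a gene's probe sets, 1227 and 957 at 1.5-fold and 84 and 57 at 3-fold. They stayed within 1.5 times of these counts with no pseudocount, quantile normalization, median scaling and without probe sets that can bind related transcripts. The limma test of a departure at day 2 called 0 genes under every alternative, 0 to 0 when both arrays of day 0, 1 or 5 were left out in turn, except that the filter at the upper quartile gave 1. Of 3335 values of 451 named genes 43 turned sign, in 36 genes. In 2 of these genes, Ace (-0.97) and Spc25 (0.015), the reported difference was past 2-fold, and both turned without probe sets that can bind related transcripts. Of 431 values of list medians 19 turned sign, in 11 lists, and the median of all genes moved between -0.04 and 0.03. Among them, at the upper-quartile filter the median of mitotic cyclins and kinases was 0.01 and that of ERK response genes -0.0047. The cause was not tested. No paired analysis was possible because each group has 1 array and no replicate numbers; the arms were matched by day within the limma fit. With 1 array per arm and day, no spread between animals can be given, and signals near the lower quartile are poorly resolved.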
